A study of Mus musculus with 7 samples.

Results

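The microRNA miR-155 was read by 3 of the 1874 microRNA probes on a single-colour array, measured in mouse CD4 T cells on 7 arrays. Members were found by sequence alone. Each probe was turned into the RNA it pairs with, and a probe was taken when bases 2 to 8 of that target, the seed, equalled those of probe UC1005156. The other members were UC1005155 and UC1005154. The rule uses no signal.

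The naive group (2 arrays) held CD4+ D011.10+ T cells that were CD25- and CD44 low, from DO11.10 Rag2+/+ mice. DO11.10 is a transgenic T cell receptor that recognises a peptide of ovalbumin, and its donor T cells on the Rag2-/- background carry that receptor alone. DO11.10+ cells of Rag2+/+ mice can carry further receptor chains. The activated cells were the CD44 high descendants of DO11 Rag2-/- donor CD4+ cells, sorted 5 days after transfer. They came from WT Balb/c hosts (2 arrays, called the WT host group) or from sOVA hosts (3 arrays, called the sOVA host group). Hosts received, 24 h after the transfer, an intravenous injection of bone marrow-derived dendritic cells that had been treated with LPS and carried Ova peptide. All mice were Balb/c, 6 to 8 weeks old, and spleens and lymph nodes were pooled before sorting. sOVA was not spelled out in the labels.

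The design limits what the comparisons can separate. The naive cells came from Rag2+/+ donors and the transferred cells from Rag2-/- donors, so activation and donor genotype cannot be told apart. Sample titles name OVA immunisation for the WT host group and sOVA immunisation for the sOVA host group, whereas the protocol describes dendritic cells with Ova peptide for both, so host and immunisation cannot be told apart either. The series title says in vitro, and the protocols and source names say in vivo. The source name of every sample reads as activated cells, the naive arrays included, and their titles and the protocol are what set them apart as naive. No label states that replicates came from separate pools of mice, so every p-value reflects spread among the deposited samples, and that spread may be technical. In bulk RNA, a smaller share of cells that hold a microRNA and less of it per cell cannot be told apart.

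MicroRNAs are short RNAs that guide Argonaute proteins to messenger RNAs, mainly by pairing of the seed, and lower the output of those messages. miR-155 is cut from a transcript long known as Bic and is known to rise in lymphocytes and myeloid cells after antigen receptor or Toll-like receptor signals. In CD4 T cells it is known to act on messages such as that of Socs1, an inhibitor of cytokine signalling, and to favour effector helper T cell responses and fitness of regulatory T cells.

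The sequences show what each probe reads. Capitals mark the seed in each mature RNA or target, and in the targets also a base that differs from mouse miR-155-5p. In the hairpin, capitals mark the mature arms. RefSeq (GRCm38.p6) places the Mir155 hairpin at chr16:84714140-84714204 on the plus strand, inside the long non-coding gene Mir155hg (chr16:84713023-84715245). The 5p arm lies at chr16:84714143-84714165.
Mir155 hairpin: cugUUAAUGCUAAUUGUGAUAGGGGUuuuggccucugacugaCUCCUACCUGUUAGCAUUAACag
mmu-miR-155-5p: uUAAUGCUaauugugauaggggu
UC1005156 target: tTAATGCTaattgtgataggggt
UC1005155 target: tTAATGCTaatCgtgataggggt
UC1005154 target: tTAATGCTaatCgtgatagggg

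The target of UC1005156 was identical to the 23 bases of mouse miR-155-5p. The target of UC1005155 differed from it by T12C, with positions counted from the 5′ end of the microRNA. The target of UC1005154 carried the same T12C and lacked the last base, leaving 22. Neither matched a mouse RefSeq microRNA, and human miR-155 is known to carry the other base at that place. The seed belonged to 1 of 1679 mature mouse names in RefSeq, so no other mouse family member in that table shares it. The 7 seed bases occurred nowhere else in the 1874 targets, and the closest target outside the set had 8 differences from miR-155-5p. The 3 probes are thus readings of near-identical sequence on 1 array, not replicates of a condition, and cross-reading of 1 RNA by all of them cannot be told apart from separate RNAs.

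The arrays shared 1 slide and 1 scan time. Their 75th percentile signal, over the 253 probes detected on all arrays, ran from 2729 to 15743, and 309 to 467 probes were detected on an array. The lowest of these percentiles were those of sOVA host replicate 3 (2729) and WT host replicate 2 (3591). Markers of other cells differed among the sOVA host arrays. The red cell microRNA miR-451a was highest on sOVA host replicate 3 (0.94 on the scaled log2 axis, against -4.12 to -0.97 elsewhere), whereas its erythroid partner miR-144 was not well above background on any array. The muscle microRNA miR-133b was detected only there, and 2 of 4 targets of the muscle list were, with a summed scaled signal of 0.120 against 0.00264 to 0.0285 on the other arrays. The leukocyte microRNAs miR-142a-3p, miR-142a-5p and miR-181a were detected on every array. Of all 8 targets with their seeds 7 or 8 were detected on the other arrays and 5 on sOVA host replicate 3, and their summed scaled signal was 9.32 to 10.8 in naive cells, 3.13 to 4.25 in the WT host group and 2.06 to 6.47 in the sOVA host group, lowest in sOVA host replicate 3. Summed signal of the myeloid microRNA miR-223 was 0.121 to 0.143 in naive cells and 0.0103 to 0.0316 in activated cells. Of 12 targets with epithelial seeds, 6 were detected on each naive array, 0 to 2 on a WT host array and 0 to 4 on an sOVA host array. Their summed scaled signal was highest on sOVA host replicates 1 and 2 (0.123 and 0.128, against 0.0472 to 0.0932 elsewhere), and the epithelial miR-205 was detected on those arrays only (-4.87 and -4.08). The endothelial and platelet microRNA miR-126 was detected on naive replicate 2 only, and the neural miR-9 seed on none. Results that rest on sOVA host replicate 3 are given with and without it.

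All 3 probes were read well above background on every array, in each of 147 spots. UC1005154 was near the floor on some arrays. It read 1.58 and 2.88 times the lowest signal of a detected probe on naive replicates 1 and 2, and 1.79 times on sOVA host replicate 3. For UC1005156 the ratio was 13.4 to 458 over the arrays. Levels below are log2 signals relative to the 75th percentile of the array, so 0 is that percentile and 1 unit is a doubling. Brightness depends on the probe, so levels of different probes do not rank RNAs.

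UC1005156, the exact match to mouse miR-155-5p, read -3.19 and -3.41 in the naive cells. In the WT host group it read -0.77 and -0.57. In the sOVA host group it read 1.39, 1.81 and -0.95 in replicates 1, 2 and 3. Every activated array was above both naive arrays, as for 30.4% of all tested targets. The sOVA host arrays fell on both sides of the WT host arrays, with replicates 1 and 2 above and replicate 3 below. Group means were -3.30 ± 0.15 (SD, n = 2), -0.67 ± 0.14 (SD, n = 2) and 0.75 ± 1.49 (SD, n = 3).

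The order of the group means was naive, WT host, sOVA host. The naive and WT host arrays did not overlap, and 44.4% of all tested targets were likewise separate and higher in the WT host group. The sOVA host and WT host means differed by less than the spread of the sOVA host arrays. In processed signal before scaling, UC1005156 gave 1271 and 1422 units in naive cells, 5460 and 2384 in the WT host group, and 25929, 39036 and 1413 in the sOVA host group. Without scaling, sOVA host replicate 3 thus lay within the naive values. After scaling to the lower 75th percentile of that array it lay above them.

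UC1005155, with T12C, read -4.98 and -5.11 in naive cells, -2.41 and -2.37 in the WT host group, and -0.04, 0.30 and -2.68 in the sOVA host group. UC1005154, 1 base shorter, read -6.31 and -6.75, then -4.22 and -3.94, then -1.68, -1.44 and -4.37. Both repeated the order of the arrays by group, with sOVA host replicate 3 just below the WT host arrays. Over the 7 arrays, their levels correlated with those of UC1005156 at r = 0.999 and r = 0.997, which describes probes of near-identical sequence on the same RNA extracts and slide.

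The span of the members over the arrays was wide. It was 5.22 log2 units (37.2-fold) for UC1005156, 5.41 for UC1005155 and 5.31 for UC1005154. Of the 342 targets tested, 95.3%, 96.8% and 95.6% had a smaller span than these. Spread within groups was not uniform. In naive cells, the SD of UC1005156 was 0.15 against a median of 0.14 over all tested targets. In the WT host group it was 0.14 against 0.31. In the sOVA host group it was 1.49 against 0.58, and 93.0% of tested targets had a smaller SD. The 7 spots of a probe on an array had a median coefficient of variation of 4.86% for UC1005156, 8.48% for UC1005155 and 4.92% for UC1005154. These values describe error within an array and not between samples.

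Differences between the probes were nearly constant while the level moved. UC1005156 exceeded UC1005155 by 1.44 to 1.80 log2 units on the 7 arrays (mean 1.66, SD 0.14), a ratio of 2.71 to 3.49. The smallest difference was on sOVA host replicate 1 and the next on sOVA host replicate 2, at 1.51, the arrays with the highest level. UC1005155 exceeded UC1005154 by 1.32 to 1.82 (mean 1.63, SD 0.16), and UC1005156 exceeded UC1005154 by 3.07 to 3.46 (mean 3.29, SD 0.15). Each of these differences varied by at most 0.49 over the arrays, while the levels themselves spanned more than 5 log2 units.

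The array held other probes that give scale to these differences. For 27 other pairs of probes whose targets differ by a missing last base, and which were detected on all arrays, the longer exceeded the shorter by a median of 0.16, with a range of -0.23 to 2.20. Only 1 of the 27 reached the 1.63 of UC1005155 over UC1005154. The array also held deliberate single-mismatch controls for 13 other targets, and 10 controls with the mismatch at target position 12 had a parent detected on all arrays. Of these controls 4 were detected on all arrays, and they read 1.01 to 3.27 log2 units below the parent, with a median of 1.78. The other 6 were not detected on some or all arrays and read 5.12 to 11.99 log2 units below the parent. Such a value can understate the drop, because the control lay at background. The 1.66 between UC1005156 and UC1005155 lies inside the range of the 4, which stayed detected and so favour small drops. It lies below all values of the other 6, and the median over all 10 was 5.33. None of those controls was made from a miR-155 probe. On mouse miR-155-5p, UC1005155 sets G against U at position 12. The kind of mismatch in the controls was not compared, so the drops need not be alike.

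Groups were compared with limma across 342 targets, after probes whose target was the start of a longer target were represented by the brightest probe of the set. A target was tested when it was detected on all arrays of at least 1 group. UC1005154 was represented by UC1005155 in that fit, and its own values come from a fit of 401 probes taken singly. A target was called at an adjusted p below 0.05 (Benjamini-Hochberg over all targets fitted). The comparisons with naive cells share the same 2 naive arrays.

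miR-155 was higher in T cells activated in WT hosts than in naive cells by 2.63 log2 units for UC1005156 (SE 0.88), a 6.19-fold difference with a 95% interval of 1.40 to 27.5. The difference did not pass the adjusted threshold (limma, adjusted p = 0.0872), although both WT host arrays exceeded both naive arrays. UC1005155 gave 2.65 ± 0.96 (SE, adjusted p = 0.103 by limma), and UC1005154 gave 2.44 ± 0.97 (SE, adjusted p = 0.117 by limma). None of the 3 was called, where 12.9% of all targets were called higher (13.7% of the probes taken singly). Groups that do not overlap, higher in the WT host group, were found for 44.4% of all targets, so the separation of the members is shared by many.

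The spread in that fit is shared by all 3 groups, and it was set in part by the sOVA host arrays. Without sOVA host replicate 3 the difference was the same 2.63, its SE was 0.23, and it was called (limma, adjusted p = 0.00139), where 28.6% of all targets were called higher. With slide row as a block it was also called (limma, adjusted p = 0.0428), where 21.1% of all targets were called higher. Within the rows of the slide, replicate 1 arrays differed by 2.42 and replicate 2 arrays by 2.84. UC1005156 was number 23 from the top of 342 targets by size of change, and UC1005155 number 22.

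miR-155 rose in T cells activated in sOVA hosts. UC1005156 was higher than in naive cells by 4.05 log2 units (SE 0.81), or 16.6-fold with a 95% interval of 4.26 to 64.6 (limma, adjusted p = 0.0221), and 3 of 3 sOVA host arrays exceeded both naive arrays, a separation that 32.2% of all targets showed. UC1005155 rose by 4.24 (SE 0.87), or 18.9-fold (limma, adjusted p = 0.0221). UC1005154 rose by 4.03 (SE 0.88), or 16.4-fold (limma, adjusted p = 0.0229). Among all targets, 15.5% were called higher in this comparison (17% of the probes taken singly), and UC1005155 and UC1005156 stood at numbers 8 and 10 of 342.

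The size of the change depended on the arrays. Without sOVA host replicate 3 the rise of UC1005156 was 4.90, or 29.9-fold with an interval of 19.8 to 45.2 (limma, adjusted p = 0.000415), where 26% of targets were called higher. Row 1 of the slide, holding sOVA host replicates 1 and 2, gave 4.80, and row 2, holding replicate 3, gave 2.46. The call for UC1005156 was lost without naive replicate 1 (limma, adjusted p = 0.160), without naive replicate 2 (0.141) and without sOVA host replicate 1 (0.0550). The call for UC1005155 was lost without the same arrays (limma, adjusted p = 0.165, 0.141 and 0.0565).

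Taking both hosts together with equal weight, UC1005156 was 3.34 log2 units higher in activated than in naive cells (SE 0.74), or 10.1-fold with a 95% interval of 2.89 to 35.5 (limma, adjusted p = 0.0228). All 5 activated arrays exceeded both naive arrays, as for 30.4% of all targets. UC1005155 rose by 3.45 (limma, adjusted p = 0.0261) and UC1005154 by 3.24 (limma, adjusted p = 0.0298). Of all targets 18.7% were called higher in this comparison, and of the probes taken singly 20.2%. Without sOVA host replicate 3 the value of UC1005156 was 3.77, or 13.6-fold (limma, adjusted p = 0.000509), where 26.9% of targets were called higher. The slide rows gave 3.61 and 2.65. The call for UC1005156 was lost without naive replicate 1 (limma, adjusted p = 0.171), naive replicate 2 (0.156), WT host replicate 1 (0.0630) or WT host replicate 2 (0.0749). UC1005155 lost its call without these (limma, adjusted p = 0.0706 to 0.184) and without sOVA host replicate 1 (0.0506).

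A higher level in sOVA hosts than in WT hosts was not established with all arrays. UC1005156 differed by 1.42 log2 units (SE 0.81), or 2.68-fold with a 95% interval of 0.687 to 10.4 (limma, adjusted p = 0.574). UC1005155 differed by 1.59 (limma, adjusted p = 0.556) and UC1005154 by 1.59 (limma, adjusted p = 0.571). No target of 342 was called by limma in this comparison (0%, and likewise 0% of the probes taken singly), and 41 (12%) had an unadjusted p below 0.05. Groups that do not overlap, higher in the sOVA host group, were found for 5.56% of all targets, and no member was among them.

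sOVA host replicate 3 decided this value. Without it, UC1005156 was 2.27 log2 units higher in the sOVA host group, or 4.83-fold (limma, adjusted p = 0.00745), and UC1005155 was 5.74-fold higher with an interval of 3.98 to 8.28 (limma, adjusted p = 0.00588). In that fit 12.1% of 346 targets were called higher. Within row 1 the difference of UC1005156 was 2.37, and within row 2 it was -0.38, with UC1005155 at 2.54 and -0.30 and UC1005154 at 2.67 and -0.42. Signal of miR-451a and miR-133b was highest on the low side of this split, sOVA host replicate 3, which also had the lowest 75th percentile, and signal of miR-205 was highest on the high side, replicates 1 and 2. Their part in the result was not tested.

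The scaling sets where 0 lies. With the 75th percentile of all probes instead, the median log2 change over all targets was lower in each comparison. It moved from 0.27 to -0.24 for WT host versus naive and from 0.11 to -0.70 for sOVA host versus naive. For sOVA host versus WT host it moved from -0.15 to -0.45. Called targets then split into 19 higher and 20 lower (against 44 and 20) for WT host versus naive, 24 and 44 (against 53 and 19) for sOVA host versus naive, and 25 and 38 (against 64 and 31) for activated versus naive. Such a scaling shifts all targets of an array alike, so the distance from the median of all targets is the same by construction. For UC1005156 it was 2.36, 3.94 and 1.57 in the 3 comparisons.

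The targets whose pattern was most like that of miR-155 were sought among 212 targets detected on all arrays, by Pearson correlation with UC1005156 over 7 arrays. These correlations mostly reflect the differences between 3 groups and share the scaling of each array. Their median was 0.08, and 14 exceeded 0.9. The closest were miR-425-5p (r = 0.99, Spearman rho = 0.93), miR-146a-5p (r = 0.99, rho = 0.96), miR-146b-5p (r = 0.98, rho = 0.96) and UC1005121, a target with the miR-146 seed and no RefSeq match (r = 0.98, rho = 0.96). The RefSeq sequences (GRCm38.p6) of the named ones, with seeds in capitals, are shown for comparison with that of miR-155, from which their seeds differ.
mmu-miR-425-5p: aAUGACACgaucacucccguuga
mmu-miR-146a-5p: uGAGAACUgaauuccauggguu
mmu-miR-146b-5p: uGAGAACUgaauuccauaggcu

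They lie at chr9:108568789-108568811 on the plus strand, chr11:43374435-43374456 on the minus strand and chr19:46342790-46342811 on the plus strand. Next came miR-191-5p (r = 0.97), miR-24-3p (r = 0.97), UC1005468, which matched no RefSeq name (r = 0.96), and miR-652-3p (r = 0.95). A high correlation describes the shape of a pattern and not its size.

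Among the 4 closest, the change of miR-146a and of UC1005121 was also near that of miR-155 in size. miR-146a, known as a target of NF-kB signalling that limits it through Traf6 and Irak1, was read by UC1005119. It read -2.54 and -3.49 in naive cells, -0.88 and -0.22 in the WT host group, and 1.70, 1.89 and -0.38 in the sOVA host group. sOVA host replicates 1 and 2 were again the highest, and replicate 3 lay between the WT host values. It rose by 4.08 log2 units from naive to sOVA host cells (limma, adjusted p = 0.0175), and the difference of UC1005121 was 3.98. In contrast, the difference of miR-425-5p between those groups was 1.01, of miR-191-5p 0.88 and of miR-652-3p 0.69. The lowest correlations were those of UC1004976, UC1004983 (miR-92b-3p) and UC1004982, all with the seed of miR-92 and miR-25 (r = -0.88 each), and of the unmatched UC1005140 (r = -0.86).

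Reference microRNAs did not all follow miR-155. miR-21a, known to be induced by T cell activation, read 1.01 and 0.72 in naive cells, 4.34 and 4.12 in the WT host group, and 3.86, 3.87 and 3.36 in the sOVA host group. It separated naive from activated cells without the split in the sOVA host group, and its sOVA host versus WT host value was -0.53 (limma, adjusted p = 0.542). miR-181a, known to tune T cell receptor sensitivity in thymocytes, read 0.75 and 0.62 in naive cells, -2.94 and -2.38 in the WT host group, and -0.47, -0.36 and -2.05 in the sOVA host group. On this probe sOVA host replicate 3 again lay near the WT host arrays, while replicates 1 and 2 lay nearer to the naive arrays. miR-92a stayed between 0.11 and 0.70 on the 7 arrays, and miR-93, which carries the miR-17 seed, between -0.10 and 0.74.

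Other microRNAs known to rise on T cell activation were read as a list of 15 names, matched by seed and without miR-155. They covered 49 targets, of which 28 were tested. In activated against naive cells, 18 of 28 rose and 0 fell (limma), where 18.7% of all targets were called higher. Targets with the same seed count separately, such as UC1005119, UC1005121 and UC1005127 of miR-146. The 18 are thus not 18 separate microRNAs. The median change was 1.65 against 0.17 for all targets. miR-146a rose by 3.27 (limma, adjusted p = 0.0196), miR-21a by 3.10 (limma, adjusted p = 0.000993) and miR-222, a partner of miR-221, by 2.02 (limma, adjusted p = 0.00345). miR-132 rose by 2.10 (limma, adjusted p = 0.0139). The brightest probes with the seeds of miR-96, miR-182 and miR-183 were called higher as well, but they were not detected on either naive array and had passed the filter through activated cells alone. In a fit of only the 214 targets detected on all 7 arrays, 10 of 19 list members were called higher, where 15.9% of all targets were. With the 75th percentile of all probes as the scale, 6 of 28 were called higher, where 7.31% of all targets were. For WT host versus naive 14 of 28 rose, where 12.9% of all targets were called higher, with a median of 1.97 against 0.27 for all. For sOVA host versus naive 17 of 28 rose, where 15.5% of all were called higher, with a median of 1.46 against 0.11. These counts also hold the members not detected on naive arrays. Between hosts 0 of 28 were called by limma. Without sOVA host replicate 3, 4 of 29 were called higher between hosts, where 12.1% of all targets were.

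The counterpart list of 8 names known to be high in naive T cells covered 37 targets, of which 22 were tested. Here too, targets with the same seed count separately. In activated against naive cells, 7 of 22 fell and 0 rose (limma), where 9.06% of all targets were called lower, and the median was -1.41 against 0.17. miR-181a fell by 2.49 (limma, adjusted p = 0.0179) and miR-26b, which carries the seed of miR-26a, by 1.82 (limma, adjusted p = 0.00466). The change of miR-342-3p was 0.18 and did not pass (limma, adjusted p = 0.752). For WT host versus naive 5 of 22 fell, where 5.85% of all targets were called lower, and for sOVA host versus naive 4 of 22 fell, where 5.56% were. Between hosts 0 of 22 were called with all arrays. Without sOVA host replicate 3, 11 of 22 fell and 1 rose in activated cells, where 19.4% and 26.9% of all targets were called lower and higher. For sOVA host versus naive 8 fell and 3 rose, where 11.8% and 26% were. Between hosts 6 were then called higher and 1 lower, where 12.1% and 8.09% of all targets were. For activated versus naive, sOVA host replicates 1, 2 and 3 were left out in turn. In the activation list 15 of 28, 16 of 28 and 21 of 29 were called higher. Of all targets 13.7%, 15.9% and 26.9% were. In the naive list 7, 5 and 11 of 22 were called lower, where 7.56%, 7.2% and 19.4% of all targets were. Leaving out a naive or WT host array left 1 array in that group. Fewer members of both lists were then called than with all arrays, and a smaller share of all targets.

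The passenger arm of the hairpin was represented by UC1005157 only approximately. Its target is set beside the mouse 3p arm (chr16:84714182-84714202, RefSeq GRCm38.p6) because the difference decides what the probe can say. Capitals mark bases 2 to 8.
mmu-miR-155-3p: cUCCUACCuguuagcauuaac
UC1005157 target: cTCCTACAtattagcattaaca

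The target differed from the mouse arm at C8A and G10A, counted from its 5′ end, and ran to 22 bases against 21. UC1005157 was not well above background in any spot on any of the 7 arrays, including those where UC1005156 was brightest. With a base changed inside the seed region and another further along, the reading says nothing of the level of the mouse 3p arm.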

How the data were processed

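Total RNA (250 ng per array, Cy3) of sorted T cells was hybridised to single-colour Agilent-format microRNA arrays. The deposited scanner files hold intensity per spot. Per the file headers, background was subtracted and a spatial trend removed, and no normalization across arrays is recorded. Agilent Feature Extraction is given as 10.6 in the submitters' processing notes and as 9.5.1.1 in the file headers. A deposited value table holds the authors' log2 values; its normalization is not given in the sources used here, and it was used only for counts of calls, since no row was matched to a member.

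Control and outlier spots were left out, log2 intensities of the 7 spots of a probe were averaged, and each array was set to the 75th percentile of the 253 probes detected on all arrays (detected: at least 50% of spots well above background). Probes whose target is the start of a longer target were merged with it to 1753 targets, each represented by its brightest probe, of which 342, detected on all arrays of at least 1 group, were tested with limma 3.58.1 in R 4.3.3 over all 7 arrays with 3 group means, and Benjamini-Hochberg adjustment. The procedure was tested on simulated data that gave every target and array the same spread. The unequal spread among these groups was not covered. Precision is limited by how few arrays there are. The rule for members uses sequence alone, but miR-155, its probes and the lists were chosen with earlier results of these data known. Named targets were the members, the passenger arm, the 8 most and 4 least correlated targets, reference microRNAs, list members and cell markers. Names of the lists that were not found in the RefSeq table (1679 mature names) were not analysed here. miR-30b was read through the seed of miR-30c, and miR-133a through that of miR-133b. Other scalings, normexp (offset 50), filters, blocks, array weights and leaving out arrays were tried.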

Additional observations from a re-analysis of the deposited data

How the results depend on the processing

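For UC1005156, sOVA host versus naive (3.23 to 4.90) and activated versus naive (2.67 to 3.77) were called under all 12 alternatives other than leaving out 1 array, whereas leaving out 1 array moved them from 3.52 to 4.90 and from 3.08 to 3.77 with 4 and 3 of 7 called. WT host versus naive ran from 2.52 to 2.74 and sOVA host versus WT host from 0.89 to 2.27 without 1 array, each called 1 time in 7. Array weights gave 2.63 and 2.18 for these, both called, where 28.9% and 5.85% of all targets were called higher. Slide row as a block gave 2.63 for WT host versus naive, called, where 21.1% of all targets were called higher. Without both dim arrays (replicate 2 of the WT host group, replicate 3 of the sOVA host group), WT host versus naive was 2.53 and sOVA host versus WT host 2.37. Both were called, where 21.4% and 7.03% of all targets were called higher. UC1005155 in activated versus naive was not called after quantile normalization (3.14, adjusted p = 0.0661 by limma).

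Numbers of called targets, in the order WT host versus naive, sOVA host versus naive, between hosts and activated versus naive, were 64, 72, 0 and 95 of 342. Leaving out 1 array gave 12 to 160, 11 to 131, 0 to 70 and 13 to 160, and 5 to 21 and 0 to 11 for the activation and naive lists. Array weights gave 159, 181, 47 and 194 of 342, and leaving out both dim arrays 125, 156, 49 and 158 of 370. The authors' deposited log2 values gave 225, 213, 126 and 253 of 1776 rows. Those last counts come from a much larger set, so they cannot be set directly beside counts of 342 targets. Slide row as a block gave 109, 125, 0 and 143. Without a detection filter the counts were 16, 25 and 27 against naive. For activated versus naive, 6 of 49 in the activation list were then called higher (1.31% of all targets). In the naive list 0 of 37 were called lower (0.228% of all targets). With targets detected on all arrays the counts were 25, 34 and 42. The activation list had 10 of 19 called higher (15.9% of all targets), and the naive list 4 of 17 called lower (3.74%). Fewer or more targets were tested under these filters. The 75th percentile of all probes gave 39 for WT host and 63 for activated, and normexp 41 for WT host. With that percentile 6 of 28 in the activation list were called higher, where 7.31% of all targets were. The naive list had 12 of 31 called lower with every probe, where 10.5% of all probes were. It had 11 of 22 with the slide row, where 15.8% of all targets were called lower. With array weights it had 13 of 22, where 24.9% of all targets were called lower. Beyond filters, the cause was not tested.

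No label says whether replicate numbers pair samples. Deviations of same-numbered arrays from their group means correlated at -0.60 to 0.35. In a group of 2 arrays the deviations mirror each other, so these correlations cannot decide on pairing. The replicate block, which leaves sOVA host replicate 3 a level of its own, gave 2.63 for WT host versus naive and 2.27 between hosts. Both were called, where 24.9% and 5.26% of all targets were called higher. It called 139, 27 and 144 targets for WT host, between hosts and activated. For activated versus naive, 13 of 22 in the naive list were called lower, where 17.5% of all targets were.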
